A study of Homo sapiens with 8 samples.

Results

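The TLE, TBL1X and NCoR corepressors are described here as 9 genes, TLE1, TLE2, TLE3, TLE4, TBL1X, TBL1XR1, NCOR1, HDAC3 and NCOA2, taken by name from the 57189 genes of the deposited count files. Messenger RNA was sequenced from a pair of human T-cell acute lymphoblastic leukaemia lines, TIB153 and CUTLL1, whose name the labels spell CUTTL1. Each was exposed to PKF118-310 at 1 µM for 24 h or kept as its control. PKF118-310 is a small molecule that blocks the binding of β-catenin to TCF transcription factors. Both lines were grown in RPMI with serum, and the labels give the control cells as not transfected. The 4 groups were CUTLL1 with PKF118-310, CUTLL1 control, TIB153 with PKF118-310 and TIB153 control, with 1 library each, run in 2 lanes that were summed, and CUTLL1 and TIB153 with PKF118-310 are called treated CUTLL1 and treated TIB153. No value within a line therefore has a replicate error, and each line stands for itself alone.

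Library totals lay between 7609427 and 8140391 counts, and 3 counts, the limit that a count of 0 allows, corresponded to between 0.369 and 0.394 CPM, a count scaled to a common library total. The lanes of each library differed by no more than sampling noise, with a chi-square per degree of freedom between 0.990 and 1.02. Markers of T cells summed to 2176 CPM in treated CUTLL1 and 2261 CPM in CUTLL1 control, and to 2609 CPM in treated TIB153 and 2555 CPM in TIB153 control. B cell markers summed to 14.2 CPM in treated CUTLL1 and 10.6 CPM in CUTLL1 control, and to 108 CPM in treated TIB153 and 78.2 CPM in TIB153 control. In TIB153 nearly all of this was CD79A, at 107 CPM in treated TIB153 and 78.0 CPM in TIB153 control, while MS4A1 had 0 counts in every library. Of the 8 T cell markers, 2 fell across the lines by edgeR's test, where 6.78% of all genes did. By the 25% limit used below, 4 were lower in treated CUTLL1, against 15.4% of all genes, and 1 was higher, against 16.8%. In treated TIB153, 3 were lower, against 20.9% of all genes, and 0 were higher, against 19.3%. The part of these markers in the results was not tested. Myeloid, erythroid, NK cell and fibroblast markers each stayed at or below 5.77 CPM. In bulk RNA, fewer cells of a type and less RNA per cell cannot be told apart.

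TLE proteins, the human relatives of fly Groucho, are corepressors without a DNA-binding domain of their own. They sit on TCF/LEF factors and keep target genes silent until β-catenin takes their place, and they are also recruited by RUNX and HES proteins. NCOR1 is the scaffold of a second corepressor complex, in which the histone deacetylase HDAC3 and the WD40 proteins TBL1X and TBL1XR1 act for unliganded nuclear receptors. The TBL1 proteins also bind β-catenin, and NCOA2 is a p160 coactivator that nuclear receptors take up once ligand is bound.

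After PKF118-310, TLE4 stood at least 25% higher in both lines, TLE1 did so in TIB153 and TBL1XR1 in CUTLL1. NCOA2 was lower in treated TIB153 by the same limit, and NCOR1, just past it there, had opposite signs in the lines. No member passed the test across both lines. Over control and treated libraries together, edgeR called TLE2 as higher in TIB153 than in CUTLL1, as it did 14.6% of all genes. It called NCOA2, TBL1X, NCOR1, TLE3 and TBL1XR1 as lower, as it did 13.5%. DESeq2, which called fewer genes than edgeR over all genes, called 4 of these 6, without TLE3 and TBL1XR1.

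Because the compound is aimed at TCF factors, the promoters of the members were searched for the TCF/LEF core in RefSeq windows of 300 bases, 250 before and 50 after a start (GRCh38.p14). The letters sought were CTTTGA and CTTTGT on both strands. Windows were found for 8 of the 9 members, and 4 of their 15 windows held a match (26.7%), against 26.2% of all 35116 windows. Both TLE4 windows, the only HDAC3 window and 1 of 3 TLE3 windows held one. The stretches around these matches are shown in the direction of transcription, with the match in capitals, because TLE4 had the largest change across the lines of the 9 genes.
TLE4, distal start, chr9:79571901-79571964, plus strand: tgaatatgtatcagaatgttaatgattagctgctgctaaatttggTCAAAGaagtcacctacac
TLE4, second start, chr9:79573018-79573113, plus strand: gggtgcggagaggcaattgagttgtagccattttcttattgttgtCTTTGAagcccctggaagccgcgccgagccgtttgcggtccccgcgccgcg
HDAC3, chr5:141636948-141637043, minus strand: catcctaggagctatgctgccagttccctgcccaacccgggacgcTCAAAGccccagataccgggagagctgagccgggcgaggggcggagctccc
TLE3, chr15:70096935-70097002, minus strand: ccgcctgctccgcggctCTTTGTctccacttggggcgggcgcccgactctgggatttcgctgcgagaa

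The match lay 19 to 14 bases before the distal TLE4 start and 114 to 109 bases before the second one. In HDAC3 it lay 149 to 144 bases before the start, and in TLE3 it lay 233 to 228 bases before. TLE1, TLE2, TBL1X, TBL1XR1 and NCOR1 held neither core in any of their windows. The presence of these letters is a description and was not tied to the read counts.

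**Figure D1:**
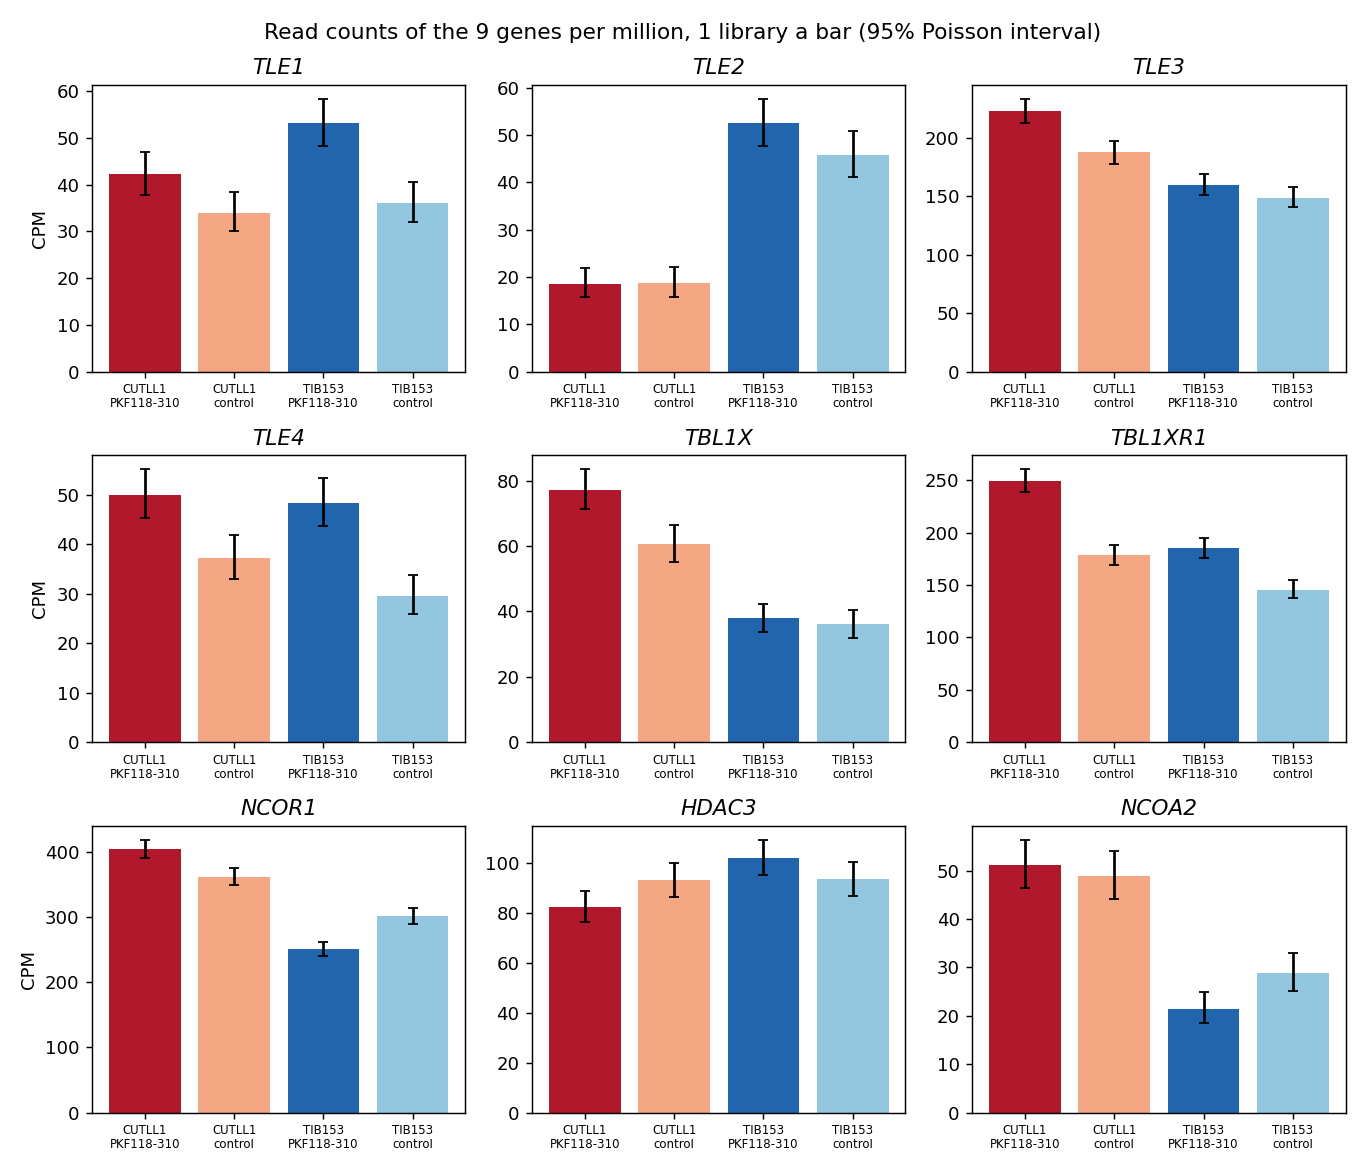
Bars give the CPM of each of the 9 genes in its 4 libraries, with 95% Poisson intervals of the count and 1 library per bar. TLE4 and TBL1XR1 stood higher with PKF118-310 in both lines, and TLE2 stood higher in both TIB153 libraries than in both CUTLL1 libraries.

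The first comparison asked how the TLE family stood in treated and control cells. TLE4 (chromosome 9, 79571773 to 79726882, plus strand, hg38) had 50.1 CPM in treated CUTLL1, against 37.2 CPM in CUTLL1 control. In TIB153 it had 48.4 CPM with PKF118-310, against 29.6 CPM in control. Both treated libraries lay above both control libraries. The log2 ratio of scaled CPM was 0.38 in CUTLL1 (95% counting interval 0.16 to 0.61) and 0.64 in TIB153 (0.41 to 0.89), that is 1.30-fold and 1.56-fold. Its reads rested on 399, 283, 394 and 231 counts in the libraries, in the order of the groups given at the start.

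TLE1, the closest neighbour of TLE4 among the members on the chromosome (9, 81583683 to 81689305, minus strand, 1857 kb away), had 42.3 CPM in treated CUTLL1 and 34.0 CPM in CUTLL1 control. In TIB153 it had 53.2 CPM with PKF118-310 and 36.2 CPM in control. The treated libraries again lay above both controls, with log2 ratios of 0.26 (0.03 to 0.50) in CUTLL1 and 0.49 (0.27 to 0.71) in TIB153. The ratio reached the 25% limit in TIB153, at 1.41-fold, and was 1.20-fold in CUTLL1.

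TLE3 (chromosome 15, 70047790 to 70098176, minus strand) had the most reads of the 4 TLE genes. It stood at 223 CPM in treated CUTLL1, against 188 CPM in CUTLL1 control, and at 159.8 CPM in treated TIB153, against 149 CPM in TIB153 control. Its log2 ratio was 0.20 (0.10 to 0.30) in CUTLL1 and 0.04 (−0.08 to 0.15) in TIB153, so the step in CUTLL1 exceeded counting error and stayed under the 25% limit. TLE2 (chromosome 19, 2997638 to 3047635, minus strand) had 18.6 CPM in treated CUTLL1 and 18.8 CPM in CUTLL1 control, and 52.5 CPM in treated TIB153 and 45.8 CPM in TIB153 control. Neither TLE2 ratio differed from 0 beyond counting error, at −0.07 (−0.41 to 0.28) in CUTLL1 and 0.13 (−0.07 to 0.34) in TIB153.

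Summed over TLE1 to TLE4, the reads had a log2 ratio of 0.22 (0.14 to 0.30) in CUTLL1 and 0.21 (0.12 to 0.29) in TIB153. AES, the short family member that lacks the WD40 repeats of the others and lies 5.27 kb from TLE2, went the other way. It had 209 CPM in treated CUTLL1 and 235 CPM in CUTLL1 control, and 453 CPM in treated TIB153 and 527 CPM in TIB153 control. Its log2 ratios were −0.22 (−0.31 to −0.12) and −0.28 (−0.35 to −0.22), both under the limit, and it did not pass across lines (edgeR adjusted p = 0.197). Per read of TLE1 to TLE4 there were 0.626 AES reads in treated CUTLL1 and 0.847 in CUTLL1 control, a log2 difference of −0.44 (−0.56 to −0.31). In TIB153 there were 1.44 with PKF118-310 and 2.02 in control, a log2 difference of −0.49 (−0.59 to −0.38). This ratio was chosen after the values were seen. TLE6, the family member on the other side of TLE2, had only 8 counts in treated CUTLL1 and 20 in CUTLL1 control, and 18 and 19 in treated TIB153 and TIB153 control.

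In the NCoR complex, TBL1XR1 had more reads in each treated library than in its control. TBL1XR1 (chromosome 3, 177019340 to 177228000, minus strand) stood at 249.6 CPM in treated CUTLL1, against 179 CPM in CUTLL1 control, and at 185 CPM in treated TIB153, against 146 CPM in TIB153 control. The log2 ratio was 0.44 (0.34 to 0.54) in CUTLL1 and 0.28 (0.17 to 0.40) in TIB153, and only the first, at 1.35-fold, reached the 25% limit. Scaled to library totals alone, the TIB153 ratio was 0.35 and reached it too. Its relative TBL1X (chromosome X, 9463295 to 9741037, plus strand) had 77.1 CPM in treated CUTLL1 and 60.6 CPM in CUTLL1 control, and 37.8 CPM in treated TIB153 and 36.1 CPM in TIB153 control. TBL1X had a log2 ratio of 0.30 (0.12 to 0.48) in CUTLL1, just under the limit at 1.23-fold, and 0.01 (−0.23 to 0.25) in TIB153. With library totals alone, TBL1X reached the limit in CUTLL1, at 0.35.

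NCOR1 (chromosome 17, 16029157 to 16218185, minus strand) had the most reads of the 9 genes in every library. It had 404 CPM in treated CUTLL1 and 362 CPM in CUTLL1 control, and 251 CPM in treated TIB153 and 302 CPM in TIB153 control. The treated library was the higher in CUTLL1 and the lower in TIB153, with log2 ratios of 0.11 (0.04 to 0.19) and −0.33 (−0.41 to −0.24). The TIB153 value, 0.796 of control, lay just past the limit. It missed the limit with library totals (−0.26), with DESeq2's size factors (−0.32) and with either lane alone.

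HDAC3 (chromosome 5, 141620876 to 141636870, minus strand), the deacetylase of the complex, had 82.5 CPM in treated CUTLL1 and 93.2 CPM in CUTLL1 control. In TIB153 it had 102 CPM with PKF118-310 and 93.6 CPM in control, so the control libraries differed by less than their counting intervals. Its log2 ratio was −0.22 (−0.38 to −0.07) in CUTLL1 and 0.07 (−0.08 to 0.21) in TIB153, both under the limit. CORO2A, a further subunit of the complex, was lower in both lines, yet missed the threshold across them (edgeR adjusted p = 0.0830). CORO2A stood at −0.31 (−0.51 to −0.11) in CUTLL1 and at −1.45 (−1.65 to −1.25) in TIB153. GPS2, another subunit, had 19 and 18 counts in treated CUTLL1 and CUTLL1 control, and 42 and 24 in treated TIB153 and TIB153 control. Its values are uncertain, because 44.7% of its exonic bases are shared with other genes on the same strand.

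NCOA2 (chromosome 8, 70109762 to 70403805, minus strand), the coactivator of the set, had 51.2 CPM in treated CUTLL1 and 48.9 CPM in CUTLL1 control. In TIB153 it had 21.5 CPM with PKF118-310 and 28.9 CPM in control, and both TIB153 libraries lay under both CUTLL1 libraries. The log2 ratio was 0.02 (−0.19 to 0.23) in CUTLL1 and −0.49 (−0.78 to −0.20) in TIB153. Of its paralogs, NCOA1 had 0.04 (−0.15 to 0.23) and −0.32 (−0.53 to −0.11) in CUTLL1 and TIB153, whereas NCOA3 had 0.66 (0.46 to 0.88) and 0.47 (0.25 to 0.70).

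**Figure D2:**
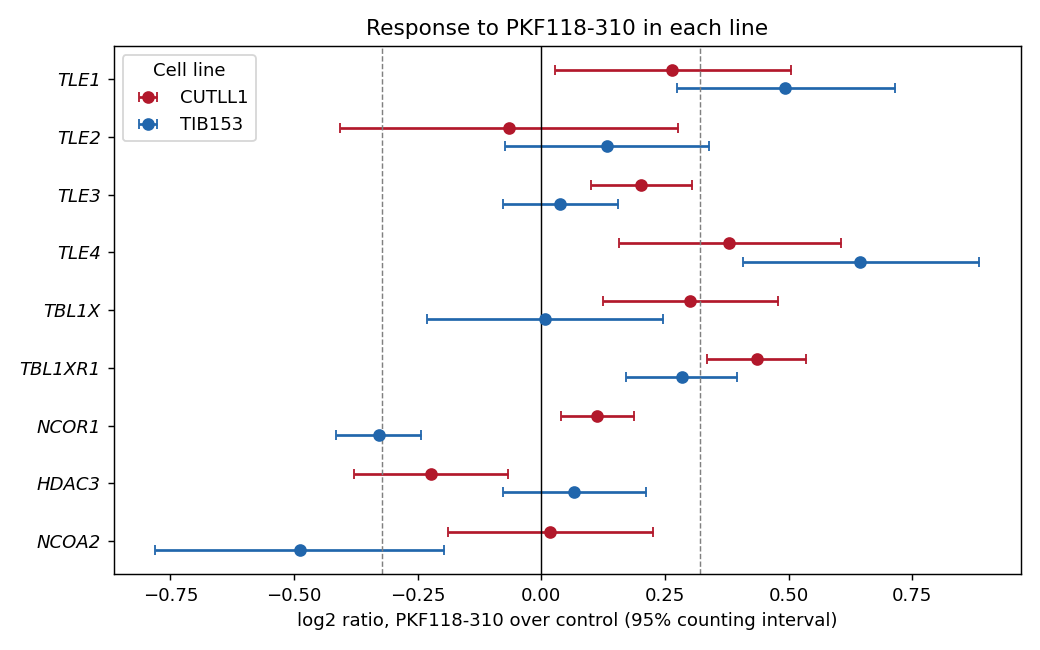
Points give each gene's log2 ratio of treated over control cells in both lines, with 95% counting intervals, and dashed lines mark the 25% limit. TLE4 lies past the upper line in both lines, at 0.38 and 0.64, and NCOR1 lies on opposite sides of 0.

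By the 25% limit with an interval that left out 0, 2 of the 9 members were higher in treated CUTLL1 (TLE4 and TBL1XR1), where 16.8% of all 13280 tested genes were higher, and none was lower, where 15.4% of all genes were. In TIB153, 2 members were higher (TLE1 and TLE4), against 19.3% of all genes, and 2 were lower (NCOR1 and NCOA2), against 20.9%. TLE4 was the 1 member higher in both lines, as were 8.64% of all genes. These shares are near the background, so the counts are not a result about the 9 genes as a group. The median log2 ratio of the members was 0.20 in CUTLL1, against 0.00 over all tested genes, and 0.07 in TIB153, against −0.01. Several steps lay close to the limit, and under a limit of 50% TLE4 in TIB153 alone was left of the treatment calls. With lane 1 alone, TLE4 missed the limit in CUTLL1, and NCOR1 and NCOA2 missed it in TIB153, which left 2 calls of 4 there. With lane 2 alone, NCOR1 missed it in TIB153 as well, and with lane 1 alone TBL1X reached it in CUTLL1.

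Across the lines, edgeR's quasi-likelihood test with cell line as a block called 0 of the 9 members after Benjamini-Hochberg adjustment over all genes, where it called 6.11% of all genes as higher and 6.78% as lower. TLE4 came nearest among the members, with a log2 change of 0.51 ± 0.17 (SE) and an adjusted p of 0.0582. TBL1XR1 followed with 0.36 ± 0.12 (adjusted p = 0.0692) and TLE1 with 0.38 ± 0.16 (adjusted p = 0.144). The other 6 members had edgeR adjusted p between 0.461 and 0.895. At an unadjusted p under 0.05 the test gave 3 members (TLE1, TLE4 and TBL1XR1), where 28.7% of all genes had such a p. DESeq2 gave 1, a count that cannot be read against a background because its share over all genes was not taken. After adjustment DESeq2 called 0 members, and it called fewer genes than edgeR over all genes. Scaled to library totals alone, TBL1XR1 passed, at 0.42 (edgeR adjusted p = 0.0483). That scaling moved the share of rises among all calls from edgeR to 60.3%, against 47.4% with TMM. The fit has 1 residual degree of freedom and a median of 13.0 prior degrees of freedom, so its errors draw mostly on the spread pooled over genes.

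**Figure D3:**
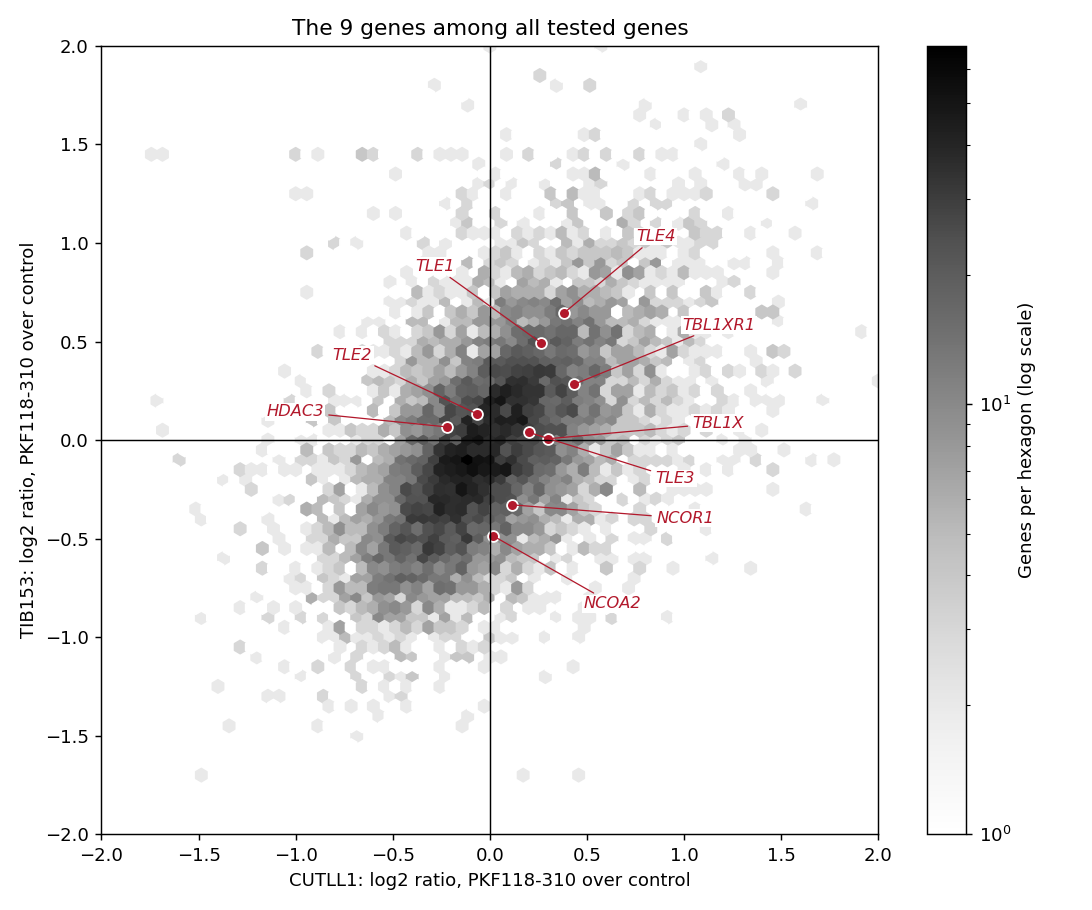
Grey hexagons hold the 13280 tested genes by their log2 ratio of treated over control cells, CUTLL1 on the horizontal and TIB153 on the vertical axis, of which 412 lie outside the axes, and red points are the 9 members. TLE4, TLE1 and TBL1XR1 lie in the upper right, and NCOR1 and NCOA2 lie below 0 on the TIB153 axis only.

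The difference between the lines in the treatment ratio, TIB153 minus CUTLL1, left out 0 beyond counting error for 5 of the 9 members. It was above 0 for 1 of them, where 13.4% of all genes were, and below 0 for 4, where 18.3% of all genes were. It was −0.44 (−0.56 to −0.33) for NCOR1, −0.51 (−0.87 to −0.15) for NCOA2 and 0.29 (0.08 to 0.50) for HDAC3. TLE3 had −0.16 (−0.32 to −0.01), and TBL1XR1 had −0.15 with an upper bound that reached 0.00. For TLE4 the difference was 0.26 (−0.07 to 0.59) and for TLE1 0.23 (−0.10 to 0.56), so their larger ratios in TIB153 were not distinguishable from those in CUTLL1 at this depth. These intervals cover counting error only, and with 1 library per group the difference was not tested.

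The second comparison set the control libraries of the lines side by side. TLE2 was 2.40-fold higher in TIB153 control, with a log2 ratio over CUTLL1 control of 1.26 (0.98 to 1.56), and AES beside it had a log2 ratio of 1.14 (1.06 to 1.23). NCOA2 was lower in TIB153 control, at −0.78 (−1.03 to −0.54), as was TBL1X, at −0.77 (−0.99 to −0.55), and both TIB153 libraries of each gene lay under both of its CUTLL1 libraries. TLE3 stood at −0.35 (−0.47 to −0.24) and TLE4 at −0.35 (−0.60 to −0.09). TBL1XR1, at −0.31 (−0.43 to −0.20), and NCOR1, at −0.28 (−0.36 to −0.20), exceeded counting error and fell short of the limit, which TBL1XR1 reached with DESeq2's size factors (−0.33). TLE3 missed the limit with lane 1 alone, and TLE4 missed it with lane 2 alone. TLE1, at 0.07 (−0.18 to 0.32), and HDAC3, at −0.01 (−0.17 to 0.14), did not differ beyond counting error.

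**Figure D4:**
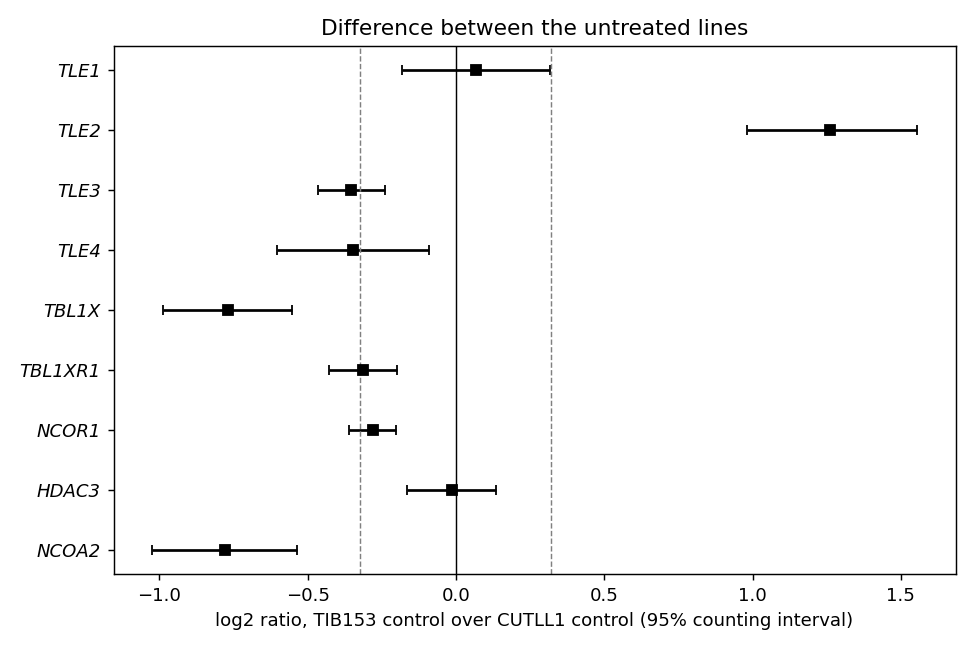
Squares give the log2 ratio of TIB153 control over CUTLL1 control for each gene, with 95% counting intervals and dashed lines at the 25% limit. TLE2 lies at 1.26, far right of the other members, and TBL1X and NCOA2 lie lowest.

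In all, 1 member was higher in TIB153 control than in CUTLL1 control, where 21.8% of all genes were higher, and 4 were lower (TLE3, TLE4, TBL1X and NCOA2), where 19.3% of all genes were. The line term of the edgeR fit, which uses both libraries of each line, called 6 members, 1 of them higher in TIB153, against 14.6% of all genes, and 5 lower, against 13.5%. TLE2 had a log2 difference of 1.36 ± 0.18 (SE, adjusted p = 7.0e-05), NCOA2 of −1.03 ± 0.18 (adjusted p = 0.000831) and TBL1X of −0.92 ± 0.16 (adjusted p = 0.00067). NCOR1 had −0.50 ± 0.14 (edgeR adjusted p = 0.0147), TLE3 −0.43 ± 0.12 (adjusted p = 0.0164) and TBL1XR1 −0.39 ± 0.12 (adjusted p = 0.0288). DESeq2 did not call TLE3 (adjusted p = 0.0850) or TBL1XR1 (adjusted p = 0.134) between the lines.

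Levels were set against each other per kilobase of exon, which depends on the transcripts counted as exon. By the GENCODE basic set, HDAC3 was highest of the 9 in every library, at 42.1 CPM per kb in treated CUTLL1 and 47.6 in CUTLL1 control, and at 52.2 in treated TIB153 and 47.8 in TIB153 control. NCOR1 had 36.5 CPM per kb in treated CUTLL1 and 32.6 in CUTLL1 control, and 22.7 in treated TIB153 and 27.2 in TIB153 control. In treated TIB153, TLE3 at 23.1, NCOR1 at 22.7 and TBL1XR1 at 22.5 CPM per kb had overlapping intervals. In CUTLL1 control, TBL1X at 7.34, TLE4 at 7.19, TLE1 at 7.13 and TLE2 at 6.42 CPM per kb did not differ in order beyond their intervals. NCOA2 was lowest in every library, at 6.06 CPM per kb in treated CUTLL1 and 5.79 in CUTLL1 control, and at 2.55 in treated TIB153 and 3.42 in TIB153 control. In both CUTLL1 libraries its interval overlapped that of TLE2, and in CUTLL1 control also those of TLE1 and TLE4. With the exons of all transcripts, a length chosen after the data were seen, HDAC3 stood below NCOR1, and NCOA2 was no longer lowest, in both CUTLL1 libraries.

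Within the TLE group the lines differed in make-up. TLE3 gave 56.5% of the reads per kilobase of TLE1 to TLE4 in treated CUTLL1 and 56.7% in CUTLL1 control, and 37.6% in treated TIB153 and 42.7% in TIB153 control. TLE2 gave 11.1% in treated CUTLL1 and 13.4% in CUTLL1 control, and 29.1% in treated TIB153 and 31.0% in TIB153 control. The reads of TLE2 per TLE3 read differed between the controls by 1.62 on the log2 scale (1.31 to 1.93), with 0.307 in TIB153 control and 0.10 in CUTLL1 control, a ratio chosen after the values were seen. With the exons of all transcripts, the TLE3 share was 29.8% in treated TIB153, against 30.6% for TLE2, so the order of those genes in that library rests on the length used.

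TBL1XR1 gave 76.5% of the reads per kilobase of the TBL1 pair in treated CUTLL1 and 74.7% in CUTLL1 control, and 83.1% in treated TIB153 and 80.2% in TIB153 control. NCOA2 gave 27.1% of the p160 group in treated CUTLL1 and 31.4% in CUTLL1 control, and 17.2% in treated TIB153 and 23.1% in TIB153 control. NCOA3 took the larger share in treated cells, 36.2% in treated CUTLL1 against 26.8% in CUTLL1 control, and 44.0% in treated TIB153 against 30.3% in TIB153 control.

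**Figure D5:**
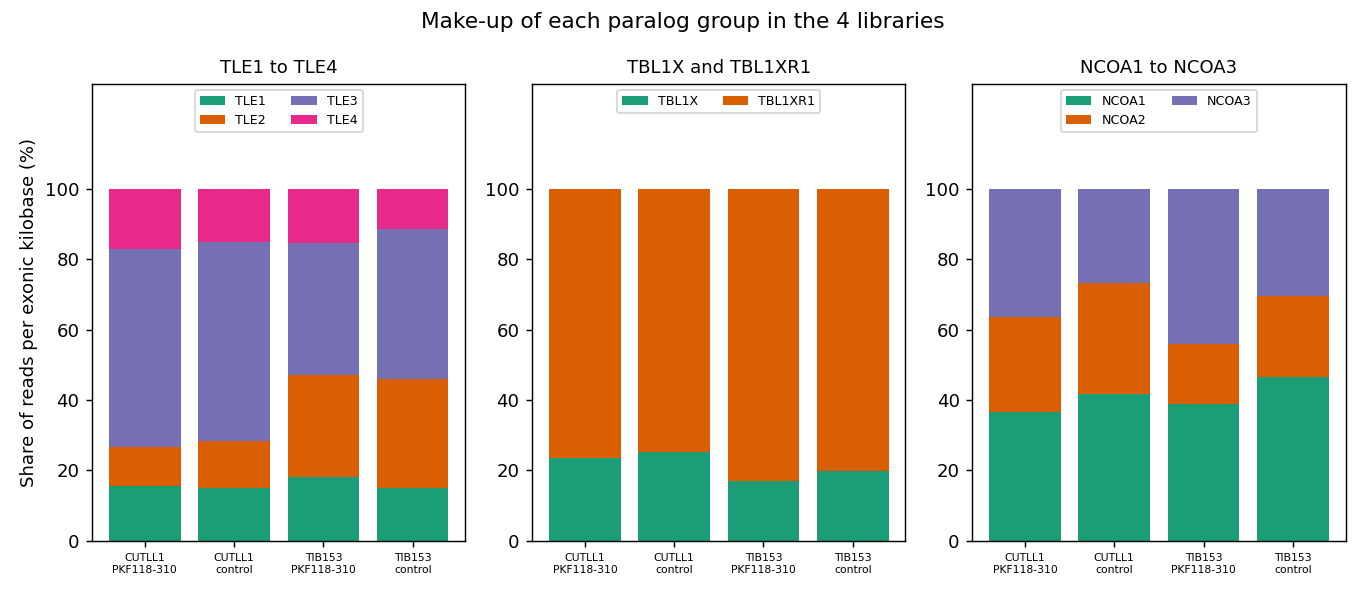
Stacked bars give the share of reads per exonic kilobase (GENCODE basic transcripts) that each paralog takes in its group, for the 4 libraries. TLE2 takes 29.1% and 31.0% of the TLE group in treated TIB153 and TIB153 control, against 11.1% and 13.4% in treated CUTLL1 and CUTLL1 control.

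Paralogs can lose or exchange reads where their sequences match. Of the 50-base windows in each member's GENCODE transcripts, 7.35% for HDAC3, 4.18% for TLE1, 3.78% for NCOR1 and 3.02% for TLE4 also occurred in a transcript of another gene. The share was 1.61% for TBL1XR1 and under 1% for TLE2 and TBL1X, and 0 such windows were found for TLE3 and NCOA2. Overlap with other genes on either strand reached 9.20% of exonic bases for HDAC3 and 3.30% for NCOR1. How the counter treated reads that map to several places, and which strand setting it used, are not given in the sources used here.

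Among the partners of these corepressors, edgeR called genes in both directions across the lines, and each list's count is read against the 6.11% of all genes that rose and the 6.78% that fell. Of 6 genes for p160 coactivators and their partners, 2 rose and 0 fell: NCOA3, by 0.57 ± 0.16 (SE, adjusted p = 0.0309), and CREBBP, the acetyltransferase that p160 proteins bring to promoters, by 0.95 ± 0.13 (adjusted p = 0.00125). CREBBP had 2466 counts in treated CUTLL1 and 1039 in CUTLL1 control, and 1286 in treated TIB153 and 699 in TIB153 control. CARM1, the arginine methyltransferase of this group, had −0.24 in CUTLL1 and −0.23 in TIB153 and was not called. Of 13 tested genes of the β-catenin and TCF/LEF complex, 1 fell, and none rose. TCF7, itself a partner of TLE proteins, fell by 0.97 on the log2 scale (SE 0.18, edgeR adjusted p = 0.0109), with 2392 counts in treated CUTLL1 and 5676 in CUTLL1 control, and 3108 in treated TIB153 and 4262 in TIB153 control. CBY1, an antagonist of β-catenin, had 0.67 (0.18 to 1.18) in CUTLL1 and 0.36 (−0.14 to 0.88) in TIB153, from 55 to 95 counts per library. BCL9L, a β-catenin coactivator, had 1.09 and −0.46 in the same order. With other genes on either strand, CBY1 shared 44.8% of its exonic bases and BCL9L 38.8%. Neither gene was called by edgeR across the lines.

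Of 6 tested transcription factors that recruit TLE proteins, 2 rose, where 6.11% of all genes did, and 0 fell, where 6.78% did. HES1, a NOTCH target that represses through TLE, rose by 1.30 ± 0.34 (SE, edgeR adjusted p = 0.0307), with 158 counts in treated CUTLL1 and 91 in CUTLL1 control, and 128 in treated TIB153 and 27 in TIB153 control. RUNX2 rose by 0.71 ± 0.17 (edgeR adjusted p = 0.0183), with 483 and 297 counts in treated CUTLL1 and CUTLL1 control, and 265 and 135 in treated TIB153 and TIB153 control. RUNX1 had 0.46 and 0.13, and RUNX3 1.34 and 0.25, in CUTLL1 and TIB153, and neither was called by edgeR across the lines. Over the 6 factors the median log2 ratio was 0.77 in CUTLL1 and 0.69 in TIB153, against 0.00 and −0.01 over all tested genes.

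Of 17 tested factors that recruit NCoR, 4 rose and 0 fell, beside 6.11% and 6.78% of all genes. The heme receptors NR1D1 and NR1D2 (REV-ERBα and REV-ERBβ), which repress through NCOR1 and HDAC3, rose by 1.02 ± 0.17 (edgeR adjusted p = 0.00280) and 1.44 ± 0.14 (adjusted p = 8.3e-05). NR1D2 had 867 counts in treated CUTLL1 and 285 in CUTLL1 control, and 909 in treated TIB153 and 319 in TIB153 control. The retinoid receptors RXRA and RXRB rose by 1.02 ± 0.19 (adjusted p = 0.00582) and 0.56 ± 0.14 (adjusted p = 0.0214). Over the 17 factors the median log2 ratio was 0.09 in CUTLL1 and 0.25 in TIB153, against 0.00 and −0.01 over all tested genes.

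Of the 10 other histone deacetylases, 1 rose and 0 fell, a share near the 6.11% of all genes that rose. HDAC5, a class IIa enzyme that works with NCoR and HDAC3, rose by 1.42 ± 0.18 (SE, edgeR adjusted p = 0.000505), with 554 counts in treated CUTLL1 and 162 in CUTLL1 control, and 441 in treated TIB153 and 177 in TIB153 control. Both treated libraries lay well above both controls, unlike those of HDAC3. HDAC9 had −1.21 and −0.16, and HDAC1 −0.19 and −0.57, in CUTLL1 and TIB153, without a call by edgeR across the lines. Of 12 tested genes of other corepressor complexes, 0 were called by edgeR or DESeq2, and 2 (KDM1A and SAP18) had an unadjusted edgeR p under 0.05, as did 28.7% of all genes. KDM1A, a histone demethylase, had −0.25 and −0.50, SAP18, of the SIN3 complex, 0.38 and 0.18, and CHD4, of the NuRD complex, −0.17 and −0.30 in the same order. CHD4 is uncertain, because 46.9% of its exonic bases are shared with other genes on the same strand.

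Among the ubiquitin ligases linked to TLE or NCoR proteins, HUWE1 fell by 0.51 (SE 0.15, edgeR adjusted p = 0.0402). SIAH2, the ligase known for degrading NCoR, had 0.00 (−0.14 to 0.13) in CUTLL1 and 0.53 (0.38 to 0.68) in TIB153. The edgeR test across the lines did not call it. Protein was not measured here, and a link between the SIAH2 and NCOR1 reads was not tested. Of the partners named here as called by edgeR, DESeq2 did not call NCOA3, HES1, RUNX2, RXRB and HUWE1, with adjusted p between 0.0727 and 0.209.

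The genes nearest to each member in pattern were sought among 9715 others that reached 5 CPM in every library, by distance over the log2 ratios of treatment in CUTLL1, treatment in TIB153 and the controls. ZBTB37 and LRRC37A3 were nearest to TLE4, at distances of 0.016 and 0.049. NPC1, which exports cholesterol from lysosomes, and SETD7, a lysine methyltransferase, were nearest to TBL1XR1, at 0.025 and 0.052. For TLE1 these were CYHR1 and FAAP24, for TLE3 SLC45A4 and UBP1, for NCOR1 F11R and AC018638.4, and for HDAC3 IRAK1 and TMEM199, all within 0.059. TBL1X (ZNF335 at 0.074) and NCOA2 (PMEPA1 at 0.088) had more distant neighbours, and TLE2 had none closer than SIGIRR at 0.195. Counting error was not part of these distances. The CUTLL1 ratio of TLE4 alone had an interval of 0.16 to 0.61, far wider than its distances, so which gene is nearest is not resolved.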

How the data were processed

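Poly(A) RNA went into stranded libraries, and PKF118-310 dose and time are those of the study's methods, to which the labels refer. The deposited lane files hold raw counts per gene as the authors made them. Per the submitters' processing notes, hg38, HISAT2, HTSeq and DESeq2 were used, with no versions. The authors also deposited tables of their own fold changes and p-values, which were not used. The 2 lanes of each library are technical replicates and were summed. CPM were counts scaled to the library total, with exact Poisson intervals. Ratios used TMM-scaled counts (factors 0.974 to 1.03) with a pseudocount of 0.5 counts and the Clopper-Pearson 95% interval of the treated share, which cover counting error only. A gene was called where it was at least 25% higher, or lower by the same factor, and the interval left out 0. Genes were filtered with filterByExpr, and all 9 members were among the 13280 kept. Across lines, edgeR 4.0.16 (quasi-likelihood, robust, line as block) was used in R 4.3.3, with DESeq2 1.42.0 as an alternative and a threshold of 0.05. The edgeR script was tested on simulated data. GENCODE v29 gave positions for 99.2% of genes, and lengths came from its basic transcripts. Members, lists and the 25% limit were chosen with earlier results of these data known. Named partners were those called by edgeR and up to 3 per list with the largest mean ratio at 5 CPM, plus NCOA1, NCOA3, GPS2, AES and CORO2A. Some genes of the lists are not reported here.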

Additional observations from a re-analysis of the deposited data

Results flagged for a closer look

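NCOR1, the scaffold of the NCoR complex, had opposite signs in the lines, higher in CUTLL1 with PKF118-310 than in CUTLL1 control and lower in TIB153 with PKF118-310 than in TIB153 control. Both intervals left out 0, and the log2 ratio in TIB153 minus that in CUTLL1 was −0.44. With 1 library per group the difference was not tested.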

How the results depend on the processing

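Of 126 tested changes of single members across and between lines under the alternatives (other scalings, 1 lane alone, no filter, DESeq2, a fit without the robust option), 122 kept their direction and their side of the threshold. Of 144 ratios without a test, 7 changed sign, all within counting error of 0. Of 108 calls by the 25% limit, 12 changed. NCOR1 in TIB153 was lost with library totals, with DESeq2's size factors and with either lane alone, library totals added TBL1X in CUTLL1 and TBL1XR1 in TIB153, and DESeq2's size factors added TBL1XR1 between controls. HDAC3 changed sign across lines with 1 lane alone (0.0039, adjusted p = 0.992), and TBL1XR1 passed across lines with library totals, which made 1 member called. DESeq2 called neither TLE3 (−0.45) nor TBL1XR1 (−0.40) between lines. Under the 50% limit, 0 members were called in CUTLL1, 1 in TIB153 (TLE4) and 3 between controls (TLE2, TBL1X and NCOA2). With 1 lane alone, 2 to 3 members were called in TIB153, against 4 with both, TLE4 in CUTLL1 was lost with lane 1 alone, which added TBL1X there, and 4 members were called between controls, against 5. Over all genes, library totals left 560 lower calls across lines, against 900, and DESeq2 called 200 higher and 258 lower across lines and 842 and 858 between lines, against 812, 900, 1935 and 1792 by edgeR. No paired analysis was possible because the shared replicate numbers are sequencing lanes of 1 library, and cell line is already the block. Depth limits TLE2 in CUTLL1 most, where 148 and 143 counts allow a log2 ratio between −0.41 and 0.28. With the exons of all transcripts as length, a choice made after the data were seen, 29 of 36 levels per kilobase and 20 of 36 paralog shares moved by more than their counting interval.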
